A study of Mus musculus with 40 samples.

Results

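The 10 genes described here encode regulators of transcription that direct haematopoietic progenitors towards the B cell lineage, namely Ebf1, Pax5, Foxo1, Spi1, Spib, Bach2, Irf4, Pou2af1, Lef1 and Bcl11a. They are taken by gene symbol, and all 10 were found among the 49585 gene rows of the count table. Their RNA was measured in bone marrow of 10 mice of a C57BL6/129Ola background, aged 46 to 51 days. In 5 mice both Mbd3 alleles were deleted (genotype Mbd3_Del/Del, called Mbd3del), and 5 control mice carried floxed alleles (Mbd3_Flox/Flox). Mbd3 is a subunit of the NuRD complex, which remodels chromatin and removes histone acetylation. How the floxed alleles were recombined, and in which cells, is not stated in the sources used here.

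From every mouse 4 populations were sorted, which gave 8 groups of 5 libraries. Haematopoietic stem cells (HSCs) were gated as CD45+ CD150+ CD48- EPCR+. The other 3 gates were Lin- Sca-1+ c-Kit+, high for Flt3 and B220-. LMPPs (lymphoid-primed multipotent progenitors) were IL-7Ra-, without the interleukin 7 receptor. Both IL-7Ra+ populations were split by Ly6D, into ALPs (all-lymphoid progenitors, Ly6D-) and BLPs (progenitors biased towards B cells, Ly6D+). Each library came from a pool of sorted cells, 150 for HSCs and 100 for the other populations per the sample labels. Smart-seq2, which copies full-length transcripts and keeps no strand information, was used without molecular identifiers. The comparisons ask in which order the 10 transcripts appear from HSC to BLP, and whether deletion of Mbd3 changes their levels or their steps between populations.

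B cell specification begins when the ETS factor PU.1 (encoded by Spi1), the E proteins and the signal of the interleukin 7 receptor bring up Ebf1 in lymphoid progenitors. Ebf1 and Foxo1 then support each other's expression, open the genes of the pre-B cell receptor and of immunoglobulin rearrangement, and bring up Pax5. Pax5 fixes the B cell fate and represses genes of other lineages, while Irf4, Spib and Pou2af1 act with these factors at later B cell stages.

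Libraries held 2974305 to 9082610 gene counts and 12845 to 15745 detected genes. Values are CPM, counts scaled to 1000000 gene counts in a library, listed by mouse number within each group, and a floor of 3 counts is 0.330 to 1.01 CPM in a library. Mbd3 lay between 0 and 3.24 CPM in the 20 Mbd3del libraries and between 8.18 and 165 CPM in the 20 control libraries. Transcripts of sex-linked genes went against the labelled sex in control mouse10372 and mouse10381, so the results that leaving them out changed are also given without them. The Ly6d transcript followed the gate of its protein. Ly6d lay between 3646 and 13718 CPM in BLPs and at or below 492.7 CPM in the other populations. Ms4a1 of mature B cells and Cd3e, Bcl11b and Ptcra of T cells were at 0 in all 8 groups. Other genes of the same lists were present. In control ALPs the summed CPM of 8 mature B and plasma cell markers ranged from 310 to 522. That of 8 T lineage markers ranged from 66.3 to 479. In pooled cells, fewer cells with a transcript and less of it per cell cannot be told apart.

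The promoter windows of Ebf1, Pax5, Pou2af1 and Spib, 4 of the 6 members found mainly in ALPs and BLPs, are shown first. From ALP to BLP edgeR called Ebf1 in both genotypes and Pou2af1 in control mice only. Pax5 and Spib are factors of B cell commitment and of later B cell stages. Each window holds 250 bases before and 50 bases after a transcript start, from RefSeq on GRCm38.p6, written 5′ to 3′ on the strand of the gene. Capitals mark matches, on either strand, to 3 motifs. CCCNNGGG is a core known for Ebf1. GAGGAA is a core known for Spi1 and Spib. TGCAAAT is part of the octamer bound by the Oct partners of Pou2af1.
Ebf1 window 1, chr11:44617850-44618149, plus strand: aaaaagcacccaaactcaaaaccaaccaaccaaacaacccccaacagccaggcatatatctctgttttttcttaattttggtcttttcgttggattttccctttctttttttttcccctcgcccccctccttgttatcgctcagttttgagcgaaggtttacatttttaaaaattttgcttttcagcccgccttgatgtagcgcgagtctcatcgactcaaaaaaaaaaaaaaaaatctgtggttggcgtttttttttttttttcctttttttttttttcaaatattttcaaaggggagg
Ebf1 window 2, chr11:44619978-44620277, plus strand: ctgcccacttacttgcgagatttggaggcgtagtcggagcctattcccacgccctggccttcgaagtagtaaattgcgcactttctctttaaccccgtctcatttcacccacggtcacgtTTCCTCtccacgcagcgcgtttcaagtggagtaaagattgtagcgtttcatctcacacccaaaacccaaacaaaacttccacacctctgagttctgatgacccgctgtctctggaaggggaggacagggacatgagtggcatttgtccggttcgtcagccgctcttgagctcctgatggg
Pax5, chr4:44710645-44710944, minus strand: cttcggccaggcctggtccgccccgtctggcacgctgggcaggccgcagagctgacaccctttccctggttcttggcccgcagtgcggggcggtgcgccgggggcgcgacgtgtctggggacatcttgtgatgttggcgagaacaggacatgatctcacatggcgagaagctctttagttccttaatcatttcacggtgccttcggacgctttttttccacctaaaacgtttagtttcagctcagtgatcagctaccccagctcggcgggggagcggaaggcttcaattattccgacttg
Pou2af1, chr9:51213440-51213739, plus strand: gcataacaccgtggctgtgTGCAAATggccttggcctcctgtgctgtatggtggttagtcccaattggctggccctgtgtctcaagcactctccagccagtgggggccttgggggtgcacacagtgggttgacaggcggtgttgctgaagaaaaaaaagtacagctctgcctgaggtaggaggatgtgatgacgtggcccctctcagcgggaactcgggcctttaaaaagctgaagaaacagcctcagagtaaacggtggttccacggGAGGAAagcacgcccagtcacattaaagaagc
Spib, chr7:44532022-44532321, minus strand: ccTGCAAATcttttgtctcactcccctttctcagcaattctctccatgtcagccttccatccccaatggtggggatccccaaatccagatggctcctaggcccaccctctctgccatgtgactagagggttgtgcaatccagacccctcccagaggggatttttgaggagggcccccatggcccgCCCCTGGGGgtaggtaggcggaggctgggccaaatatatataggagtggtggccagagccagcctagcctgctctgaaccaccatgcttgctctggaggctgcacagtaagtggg

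The Spib window held 2 overlapping matches to the Ebf1 core, at bases 186 and 187, and the octamer letters at base 3. The Pou2af1 window held the octamer letters at base 20 and the Spi1 core at base 269, and the second Ebf1 window held the Spi1 core, as its reverse complement, at base 121. The Pax5 window and the first Ebf1 window held none of the 3 motifs. Of 32851 RefSeq promoter windows of this length, 13.7% held the Ebf1 core, 28.3% the Spi1 core and 4.02% the octamer letters. The letters GTAAACA, known for Fox factors, were searched in the same way and occurred in 3.65% of all windows. The E-box letters CAGGTG occurred in 20.2%, and neither was in these 5 windows. The windows differed in base composition, from 36.7% G and C with 9 CpG dinucleotides in the first Ebf1 window to 59.0% with 23 in that of Pax5, while that of Spib held 2 CpG in 300 bases. Windows of 9 of the 10 members were found. Of the members not shown, Irf4 held the Spi1 core at base 232, Foxo1 the Ebf1 core at base 160, and 2 of the 4 Lef1 windows held a match, to the E-box letters at base 281 and to the Spi1 core at base 51. Those of Bach2 and Bcl11a held none of the 5 motifs.

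The 10 transcripts fell into an early and a late set. Spi1, Bcl11a, Foxo1 and Bach2 had at least 3 counts in every HSC library of both genotypes. Pax5, Pou2af1, Spib, Irf4 and Lef1 did not reach that mark in all libraries of any population before BLP, and Ebf1 reached it from ALP on, and in control HSCs. In BLPs Pax5 and Pou2af1 reached it in both genotypes, Spib only in Mbd3del mice, Irf4 only in control mice and Lef1 in neither. Per kilobase of exon, control HSCs held most of Spi1 (19.4 ± 10.8 CPM per kb, SD, n = 5) and Bcl11a (16.8 ± 1.76 CPM per kb), which did not differ beyond their spread. Foxo1 (5.98 ± 2.17 CPM per kb) and Bach2 (1.12 ± 0.951 CPM per kb) came next, and Ebf1 stood at 0.125 ± 0.0718 CPM per kb. In control BLPs, Bcl11a (23.6 ± 3.23 CPM per kb), Ebf1 (23.4 ± 3.53) and Spi1 (22.5 ± 13.2) were the highest and lay within each other's spread. Pou2af1 (11.9 ± 9.90 CPM per kb), Foxo1 (11.8 ± 6.99) and Spib (6.82 ± 6.97) followed, while Pax5 (0.993 ± 0.937) and Lef1 (0.463 ± 0.459) were the lowest. In Mbd3del BLPs, Bcl11a (29.9 ± 7.93 CPM per kb) and Spi1 (27.3 ± 15.2) stood above Ebf1 (16.1 ± 5.13), and Pax5 (0.930 ± 0.794) and Lef1 (0.619 ± 0.641) were again last.

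**Figure D1:**
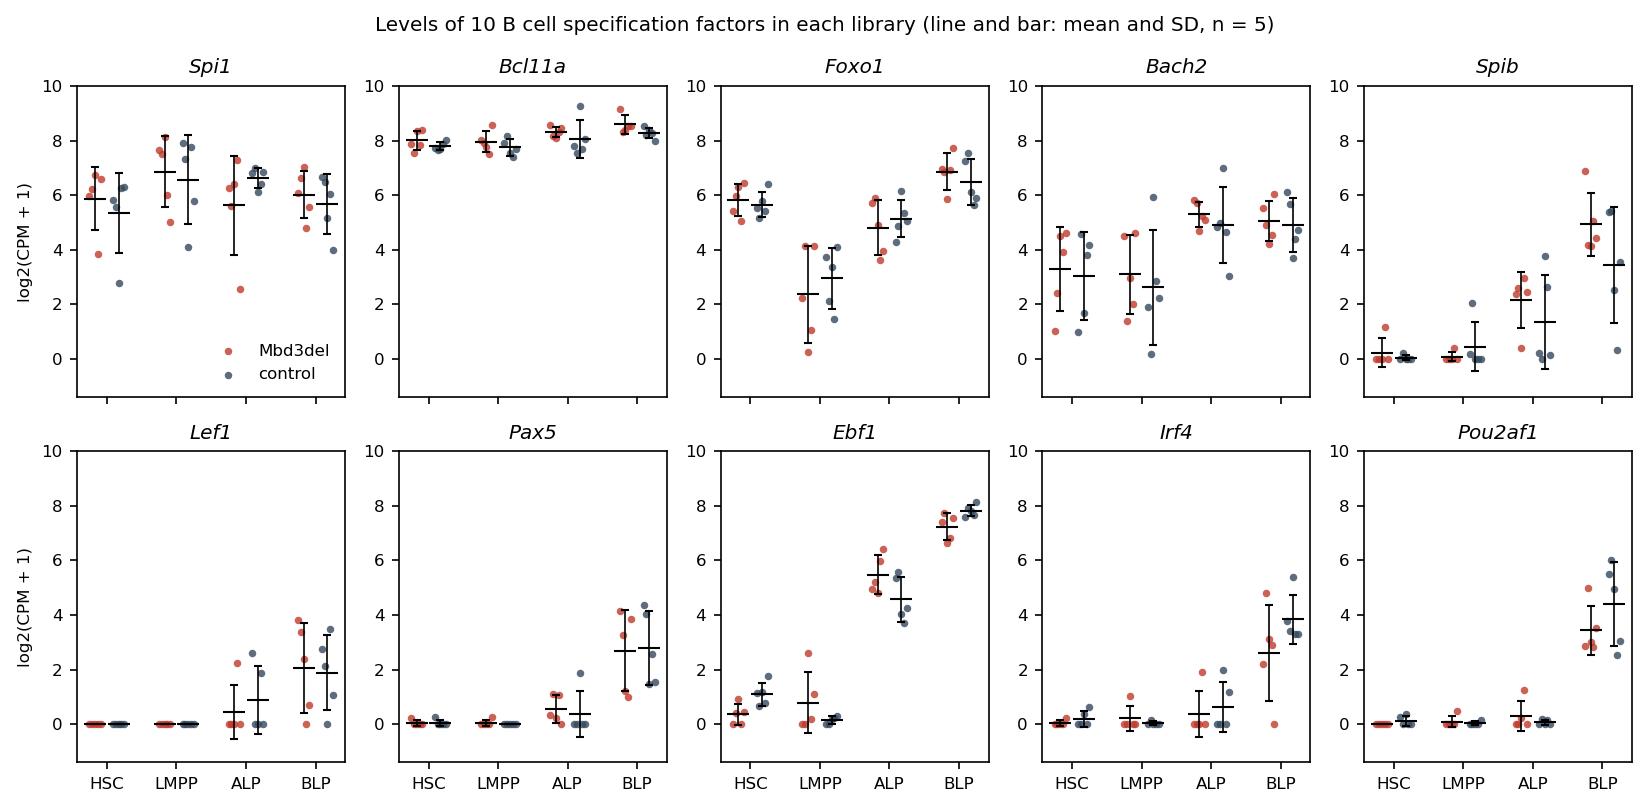
Level of each member in every library, as log2(CPM + 1) with a pseudocount of 1, by population, with Mbd3del libraries in red and control libraries in dark blue; the line and bar give the mean and SD over 5 libraries. Ebf1 separates ALPs and BLPs from HSCs and LMPPs in both genotypes, and Foxo1 has its lowest values in LMPPs.

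Ebf1, the factor that starts the B cell programme, had the largest fold change of the members tested between LMPP and ALP (chromosome 11, 44617317 to 45008091, plus strand, GRCm38, 17 exon blocks). ALP libraries held 30.1, 35.8, 27.2, 62.9 and 85.6 CPM in Mbd3del mice and 39.6, 46.5, 15.5, 12.1 and 18.1 CPM in control mice. LMPP libraries held 0, 0, 5.18, 0.153 and 1.16 CPM in Mbd3del mice and 0, 0, 0.154, 0.160 and 0.237 CPM in control mice. Every ALP library thus lay above every LMPP library, and 29 of the 36 Ebf1 counts of Mbd3del LMPPs came from mouse10365. The log2 fold change of ALP over LMPP was 5.34 ± 1.08 (SE) in Mbd3del mice and 7.59 ± 1.10 in control mice, with adjusted p = 0.0163 and 0.00277 by the quasi-likelihood test of edgeR over all genes. Ebf1 was the single member called higher at this step, of 5 tested in each genotype, where 1.11% of all genes were called higher in Mbd3del mice and 0.469% in control mice. Without mouse10365 the Mbd3del fold change was 7.50, and the difference of this step between genotypes was -0.13, against -2.25 ± 1.37 with all mice. The Mbd3del call was lost without mouse10360, mouse10361, mouse10376 or mouse10384 (adjusted p = 0.0506 to 0.0842), and the control call with the mouse as a block (log2 fold change 7.51, adjusted p = 0.0672).

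Ebf1 rose again from ALP to BLP. BLP libraries held 171, 215, 98.2, 112 and 188 CPM in Mbd3del mice and 193, 244, 224, 202 and 279 CPM in control mice, all above the ALP libraries given before. The log2 fold change of BLP over ALP was 1.75 ± 0.36 in Mbd3del mice (edgeR adjusted p = 0.0393) and 3.21 ± 0.38 in control mice (edgeR adjusted p = 0.000971). The Mbd3del call was lost without mouse10360, mouse10361, mouse10365 or mouse10376 (adjusted p = 0.0811 to 0.261), in a joint fit of all 40 libraries (0.266) and without scaling factors (0.0504), and the control call without mouse10372 and mouse10381 together (2.74, adjusted p = 0.134).

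A low level of Ebf1 was already present in control HSCs, where the 5 libraries held 4 to 17 counts. Mbd3del HSCs had 0, 0.336, 0.918, 0 and 0.360 CPM, and control HSCs had 1.20, 0.591, 1.24, 0.714 and 2.36 CPM, all above the control LMPP values. The sums were 9 counts in Mbd3del and 35 counts in control HSCs, a ratio of 0.276 per gene count (95% counting interval 0.117 to 0.586), and the libraries overlapped. These low counts did not pass the expression filter of the separate comparisons. In the joint fit of all libraries, Ebf1 in control mice fell by 3.16 on the log2 scale at the step to LMPP (SE 0.95, edgeR adjusted p = 0.0286), and the difference of that step between genotypes, 5.05 ± 1.27, had an adjusted p = 0.287. In the same fit Mbd3del mice gave 1.89 ± 0.85 at that step (edgeR adjusted p = 0.233), and most of their LMPP counts came from mouse10365. Without the expression filter the control fall was 3.12 ± 1.78 (edgeR adjusted p = 0.330) and the difference between genotypes 5.17 ± 2.47 (0.736).

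Foxo1, a forkhead factor that activates Il7r and the recombinase genes, had its lowest levels in LMPPs (chromosome 3, 52268336 to 52353221, plus strand, 3 exon blocks). LMPP libraries held 3.68, 16.7, 0.179, 1.07 and 16.6 CPM in Mbd3del mice and 12.2, 3.36, 9.26, 1.76 and 16.1 CPM in control mice. HSC libraries held 41.6, 60.9, 76.8, 32.2 and 85.7 CPM in Mbd3del mice and 45.1, 34.4, 54.4, 42.1 and 82.9 CPM in control mice. Every LMPP library lay below every HSC library, and the log2 fold change of LMPP over HSC was -2.88 ± 0.81 in Mbd3del mice (edgeR adjusted p = 0.0454) and -2.48 ± 0.59 in control mice (0.0248). Foxo1 was the single member called lower at this step, of 4 tested in each genotype, where 3.75% of all genes were called lower in Mbd3del mice and 3.18% in control mice. Leaving out any Mbd3del mouse ended the Mbd3del call (adjusted p = 0.0663 to 0.137). Leaving out control mouse10357, mouse10358, mouse10380 or mouse10381 ended the control call (0.0528 to 0.0716), as did leaving out mouse10372 and mouse10381 together (0.0893).

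Mean Foxo1 levels were higher at both later steps, but edgeR did not call these steps within either genotype. It averaged 32.9 ± 21.3 CPM in Mbd3del ALPs and 37.8 ± 19.8 CPM in control ALPs, and 125 ± 55.7 CPM in Mbd3del BLPs and 102 ± 60.6 CPM in control BLPs (SD, n = 5 each). The log2 fold changes of ALP over LMPP were 2.18 ± 0.90 in Mbd3del mice (edgeR adjusted p = 0.378) and 2.05 ± 0.67 in control mice (0.300). Those of BLP over ALP were 1.997 ± 0.48 in Mbd3del mice (0.0878) and 1.504 ± 0.43 in control mice (0.497). A fit of both genotypes together with genotype as a covariate, chosen after the data were seen, called Foxo1 at all 3 steps, with log2 fold changes of -2.67, 2.12 and 1.75 and edgeR adjusted p = 0.000725, 0.0342 and 0.00488. The same fit also called Spi1 from HSC to LMPP, Ebf1 from LMPP to ALP, and Ebf1 and Pou2af1 from ALP to BLP. Over all genes it called 16.2% at the first step, 3.88% at the second and 1.01% at the third.

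Spi1 and Bcl11a had at least 3 counts in every library. Bach2 did in every group but control LMPPs, where 4 of 5 libraries did. Spi1 (chromosome 2, 91082390 to 91115756, plus strand) had its highest mean in LMPPs, with 201, 181, 282, 63.7 and 31.2 CPM in Mbd3del mice and 241, 158, 16.2, 215 and 53.6 CPM in control mice. Its HSC libraries ranged from 13.5 to 106 CPM in Mbd3del mice and from 5.90 to 77.6 CPM in control mice, so the populations overlapped. The log2 fold change of LMPP over HSC was 1.19 ± 0.54 in Mbd3del mice and 1.43 ± 0.66 in control mice (edgeR adjusted p = 0.244 and 0.284), and 1.31 with both genotypes together (0.0438). Bcl11a, a zinc finger factor needed for lymphoid development (chromosome 11, 24078056 to 24174123, plus strand), was among the highest members in every population. Its BLP libraries held 576, 320, 332, 370 and 369 CPM in Mbd3del mice and 365, 296, 337, 306 and 253 CPM in control mice, and the genotypes overlapped. Its group means ran from 256 ± 75.8 CPM in Mbd3del LMPPs to 393 ± 104 CPM in Mbd3del BLPs, and from 218 ± 47.5 CPM in control LMPPs to 312 ± 42.5 CPM in control BLPs. Bach2, a repressor that favours lymphoid over myeloid genes (chromosome 4, 32238804 to 32586108, plus strand), differed widely between libraries of a group. It ranged from 1.01 to 23.4 CPM in Mbd3del HSCs and from 0.998 to 22.9 CPM in control HSCs, and averaged 40.2 ± 12.8 CPM in Mbd3del ALPs and 43.1 ± 47.1 CPM in control ALPs, where mouse10372 alone held 126 CPM. In LMPPs Bach2 ranged from 1.60 to 23.4 CPM in Mbd3del mice and from 0.125 to 60.5 CPM in control mice. The highest control LMPP library was again that of mouse10372. The log2 fold change of ALP over LMPP for Bach2 was 1.90 ± 0.65 in Mbd3del mice and 1.21 ± 1.11 in control mice (edgeR adjusted p = 0.232 and 0.871). In control mice it was 2.85 without mouse10372 and 3.23 without mouse10372 and mouse10381. That of BLP over ALP was -0.09 ± 0.41 in Mbd3del mice and -0.16 ± 0.64 in control mice (0.990 and 0.998).

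Pou2af1, which encodes the coactivator of the octamer factors Oct1 and Oct2 (chromosome 9, 51213708 to 51240080, plus strand, 5 exon blocks), was found almost only in BLPs. BLP libraries held 6.37, 30.4, 7.14, 6.10 and 10.5 CPM in Mbd3del mice and 44.3, 64.5, 30.2, 4.86 and 7.24 CPM in control mice. ALP libraries held 0, 0, 0.159, 1.37 and 0 CPM in Mbd3del mice and 0, 0.131, 0, 0.110 and 0 CPM in control mice. Every BLP library lay above every ALP library, with 305 against 12 counts in Mbd3del mice and 1098 against 2 counts in control mice. The log2 fold change of BLP over ALP was 5.32 ± 1.32 in Mbd3del mice (edgeR adjusted p = 0.107) and 8.71 ± 1.14 in control mice (0.00185). The control call was lost without mouse10358 (0.0606) and without mouse10372 and mouse10381 together (0.117). In the Mbd3del comparison the log2 fold change was 7.87 (adjusted p = 0.0332) without mouse10376, which held 11 of the 12 ALP counts.

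At this step edgeR called 1 of 8 members tested higher in Mbd3del mice (Ebf1) and 2 of 10 in control mice (Ebf1 and Pou2af1), where 0.507% and 0.238% of all genes were called higher. DESeq2 called 4 of 8 in Mbd3del mice (Ebf1, Foxo1, Pou2af1 and Spib) and 3 of 10 in control mice (Ebf1, Irf4 and Pou2af1), against 1.91% and 0.614% of all genes. At the step from LMPP to ALP, DESeq2 called Ebf1 in Mbd3del mice, and Ebf1 and Foxo1 in control mice, against 4.28% and 2.59% of all genes. From HSC to LMPP it called Foxo1 in each genotype, against 10.8% in Mbd3del and 10.3% in control mice.

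The other late members were detected in BLPs at low and uneven levels. Pax5, the factor of B cell commitment (chromosome 4, 44524757 to 44710487, minus strand, 13 exon blocks), had 16.5, 8.74, 1.35, 0.975 and 13.6 CPM in Mbd3del BLPs and 19.7, 15.5, 1.78, 4.98 and 1.95 CPM in control BLPs. All 10 BLP libraries held at least 7 counts, whereas ALP libraries held 0 to 9, and 17 of the 20 Mbd3del ALP counts came from mouse10361 and mouse10376. BLP over ALP gave a log2 fold change of 4.37 ± 1.62 in control mice (edgeR adjusted p = 0.990), where all 9 ALP counts came from mouse10372. Without this mouse the control ALPs were at 0, so the fitted fold change has no fixed size, and the adjusted p was 0.120, or 0.363 without mouse10381 as well. Pax5 did not pass the filter in Mbd3del mice. Spib, an ETS factor of B cells and plasmacytoid dendritic cells (chromosome 7, 44525993 to 44532071, minus strand), had 117, 16.9, 16.4, 32.4 and 20.5 CPM in Mbd3del BLPs and 40.2, 41.9, 4.74, 0.256 and 10.6 CPM in control BLPs. It was already present in ALPs of 4 of 5 Mbd3del mice and 2 of 5 control mice at 3 or more counts. Its log2 fold change of BLP over ALP was 3.36 ± 0.75 in Mbd3del mice (edgeR adjusted p = 0.0650) and 2.54 ± 1.42 in control mice (0.998). Spib was higher in BLPs than in ALPs in 5 of 5 Mbd3del mice but in only 3 of 5 control mice. ALPs held 95.3% of the Spib CPM summed over the 4 populations in control mouse10380 and 72.5% in control mouse10372.

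Irf4, a partner of PU.1 and Spi-B on composite sites (chromosome 13, 30749226 to 30766976, plus strand), had 3.64, 27.1, 7.72, 6.46 and 0 CPM in Mbd3del BLPs and 12.7, 9.80, 41.5, 8.82 and 8.91 CPM in control BLPs. It was at 0 in 4 of 5 Mbd3del ALP libraries and 3 of 5 control ALP libraries, and BLP over ALP gave 4.11 ± 1.69 in Mbd3del mice and 4.51 ± 1.37 in control mice (edgeR adjusted p = 0.546 and 0.597). Lef1, an HMG box factor of Wnt signalling (chromosome 3, 131110471 to 131224356, plus strand), was at 0 in all HSC and LMPP libraries and in 4 of 5 Mbd3del and 3 of 5 control ALP libraries. BLPs held 13.04, 9.30, 4.25, 0 and 0.617 CPM in Mbd3del mice and 5.81, 3.35, 0, 10.1 and 1.11 CPM in control mice, so a library without Lef1 occurred in each genotype. Exons of 5 members overlap other genes, by 13.7% of exon length in Lef1, 8.60% in Pax5, 7.78% in Foxo1, 5.402% in Bach2 and 2.40% in Bcl11a, and without strand the reads of such stretches cannot be assigned.

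**Figure D2:**
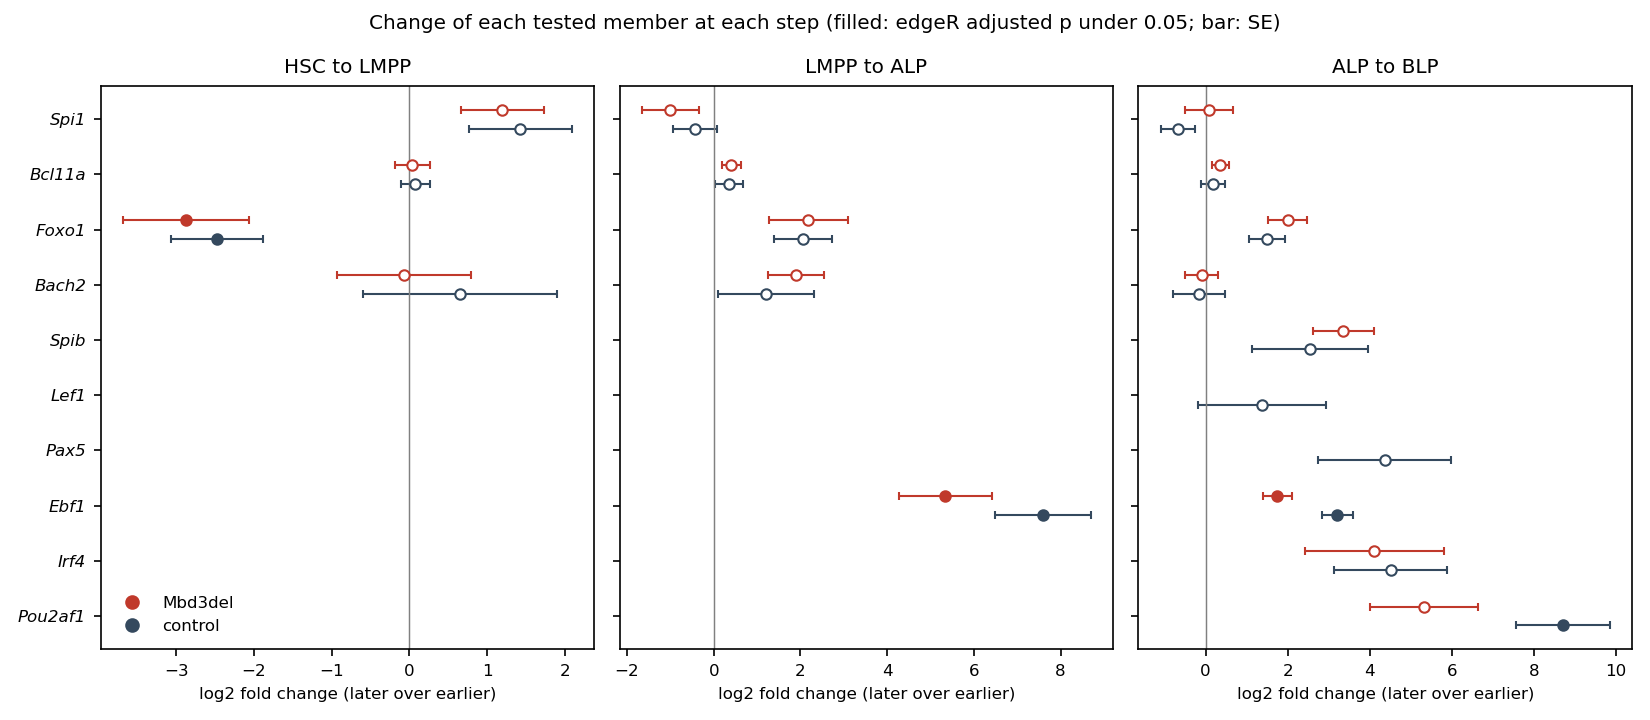
Log2 fold change of each tested member, later over earlier population, at the 3 steps, with the SE as bar, Mbd3del in red above control in dark blue; filled points passed an edgeR adjusted p of 0.05. Foxo1 is the filled member below 0 at the first step, and Ebf1 is filled in both genotypes at the other two.

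To describe where along the populations each transcript was concentrated, each mouse's CPM of a gene was divided over its 4 populations, and a position was taken as the mean population number (1 for HSC to 4 for BLP) weighted by these shares. In control mice the order of mean positions was Spi1 (2.55 ± 0.318, SD), Bcl11a (2.66 ± 0.110), Foxo1 (2.90 ± 0.432), Bach2 (2.999 ± 0.377), Spib (3.63 ± 0.440), Lef1 (3.83 ± 0.221, n = 4), Pax5 (3.87 ± 0.266), Ebf1 (3.88 ± 0.0539), Irf4 (3.92 ± 0.116) and Pou2af1 (3.98 ± 0.0126). Among neighbours in this order, Spib lay after Bach2 in 10 of 10 mice, and the other 8 neighbouring pairs kept the order in only 2 to 7 of 9 or 10 mice. The widest gap between neighbouring means thus lay between the early set of 4 and the late set of 6, and the order of neighbours within each set varied from mouse to mouse. Pou2af1 lay after Ebf1 in 10 of 10 mice. The position does not measure onset: Ebf1, whose level was highest in BLPs, lay beside Pax5, although all 10 ALP libraries held at least 3 counts of Ebf1 and only 3 of 10 held as many of Pax5. In Mbd3del mice the early set lay at 2.39 ± 0.260 (Spi1), 2.68 ± 0.158 (Bcl11a), 2.98 ± 0.355 (Foxo1) and 2.96 ± 0.269 (Bach2), each within 1 control SD of its control mean. The late set other than Ebf1 lay between 3.80 ± 0.447 (Lef1) and 3.94 ± 0.0774 (Pou2af1). Ebf1 itself lay at 3.74 ± 0.102 in Mbd3del mice and 3.88 ± 0.0539 in control mice (n = 5 each). ALPs held 14.97%, 14.2%, 20.7%, 36.0% and 31.2% of the summed Ebf1 CPM in the 5 Mbd3del mice, a mean of 23.4% ± 9.76, against a mean of 10.2% ± 5.72 in control mice, where the highest was 16.9%.

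**Figure D3:**
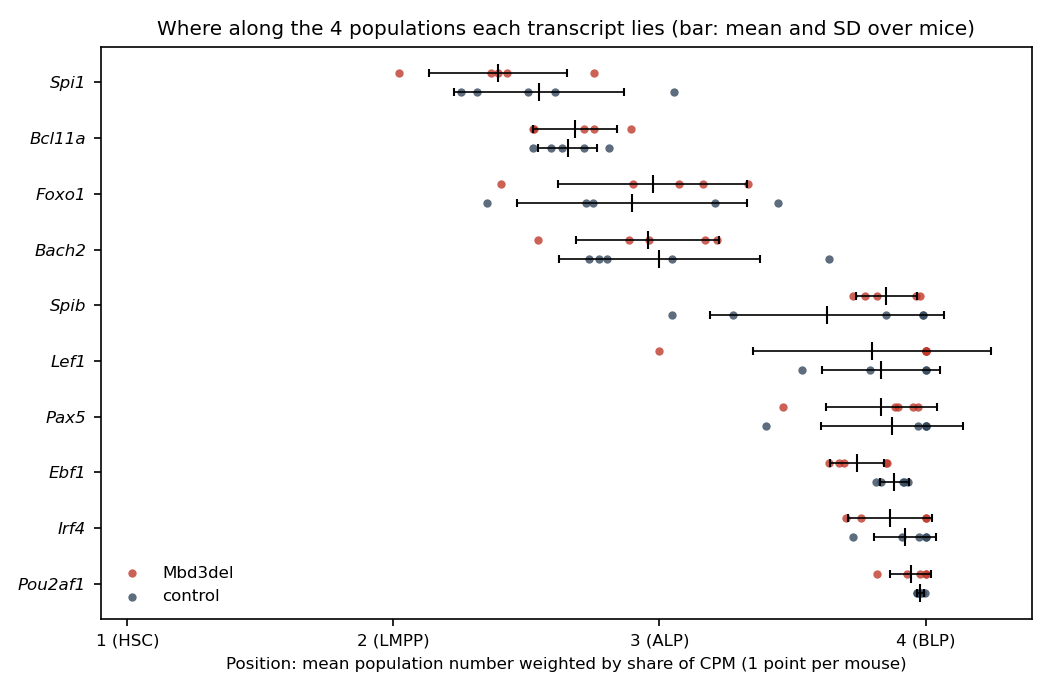
Position of each member along the 4 populations, from 1 (HSC) to 4 (BLP), with 1 point per mouse, Mbd3del in red above control in dark blue, and the mean and SD as bar. Spi1, Bcl11a, Foxo1 and Bach2 lie near the middle of the axis and the other 6 members close to BLP.

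No member was called between genotypes in any population. In ALPs edgeR also left Mbd3, the deleted gene, uncalled (log2 fold change -6.09 ± 1.05, edgeR adjusted p = 0.128). All its Mbd3del libraries there lay below all control libraries, so an uncalled member in ALPs is no sign of equal levels. In HSCs and LMPPs 4 members could be tested each, in ALPs 6 and in BLPs 10, and edgeR called 0 of them in all 4, where it called 0.0176%, 0.0183%, 0.0182% and 0.0743% of all genes in that order. DESeq2 also called 0 members, against 0.123%, 0.33%, 0.127% and 1.47% of all genes. At an unadjusted edgeR p under 0.05 the count was 0 in HSCs, LMPPs and ALPs, where 4.11%, 5.19% and 2.3% of all genes had such a p. It was 1 of 10 in BLPs (Ebf1), where 8.31% of all genes did, so the members' share was near the background. The libraries of the genotypes overlapped for all 10 members in all 4 populations, where the share of tested genes without overlap was 1.02% for HSC, 1.46% for LMPP, 0.772% for ALP and 2.58% for BLP libraries. The median log2 fold change of Mbd3del over control among the 10 members in BLPs was 0.18, beside -0.03 for all genes tested.

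Among the members, Ebf1 had the smallest genotype p in ALPs and in BLPs, with opposite signs. In ALPs it averaged 48.3 ± 25.2 CPM in Mbd3del mice and 26.3 ± 15.6 CPM in control mice (SD, n = 5 each), a log2 fold change of 0.93 ± 0.49 (edgeR adjusted p = 0.9999). In BLPs it averaged 157 ± 50.1 CPM in Mbd3del mice and 228 ± 34.4 CPM in control mice, a log2 fold change of -0.53 ± 0.23 (edgeR adjusted p = 0.560), and 4 of 5 Mbd3del libraries lay below the lowest control library. The step from ALP to BLP differed between genotypes by -1.46 ± 0.51 for Ebf1 and by -3.41 ± 1.55 for Pou2af1 on the log2 scale (edgeR adjusted p = 0.99996 for each). Leaving out 1 mouse gave -1.73 to -1.18 for Ebf1 and -4.34 to -0.77 for Pou2af1, whose smallest value was without mouse10376. Without mouse10372 and mouse10381 the Ebf1 difference was -0.98. EdgeR called 0 of 10 members for that difference, these 2 had an unadjusted p under 0.05, beside 4.03% of all genes, and DESeq2 called 0. For the steps from HSC to LMPP (4 members tested) and LMPP to ALP (6 tested) edgeR, DESeq2 and an unadjusted p under 0.05 each gave 0 members, where 5.13% and 4.51% of all genes had an unadjusted p under 0.05. Over all genes edgeR called 0% at each of the 3 differences, and DESeq2 called 0.215%, 0.123% and 0.0825% from the first step to the last.

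Before ALP, the 4 early members could be compared. In HSCs the log2 fold change of Mbd3del over control was 0.11 ± 0.32 for Foxo1, 0.30 ± 0.54 for Spi1, 0.04 ± 0.89 for Bach2 and 0.15 ± 0.18 for Bcl11a (edgeR adjusted p = 0.956 to 0.997). In LMPPs it was -0.27 ± 1.07 for Foxo1, 0.09 ± 0.64 for Spi1, -0.67 ± 1.22 for Bach2 and 0.12 ± 0.23 for Bcl11a (0.992 to 0.999). The errors were smallest for Bcl11a, and the intervals for Bach2 and Foxo1 in LMPPs are wide. In ALPs the 5 tested members other than Ebf1 lay between -0.48 ± 0.54 (Spi1) and 0.28 ± 1.38 (Spib), each within 1 SE of 0.

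Other BLP members with a fold change over its SE were Pou2af1 at -1.30 ± 0.70 (edgeR adjusted p = 0.684), Spib at 1.11 ± 0.89 (0.838) and Bcl11a at 0.36 ± 0.19 (0.666). Without mouse10360, the highest Mbd3del library of both genes, Spib gave 0.23 and Bcl11a 0.19. Without mouse10372 and mouse10381 Spib gave 0.66, and without mouse10358 Pou2af1 gave -0.85. Pax5, at 8.23 ± 7.03 CPM in Mbd3del BLPs and 8.79 ± 8.30 CPM in control BLPs, gave -0.05 ± 0.94 (0.996), an error that leaves changes of several-fold undetectable at this depth and n. Irf4 gave -0.90 ± 0.97 (0.901) and Lef1 0.41 ± 1.32 (0.975).

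**Figure D4:**
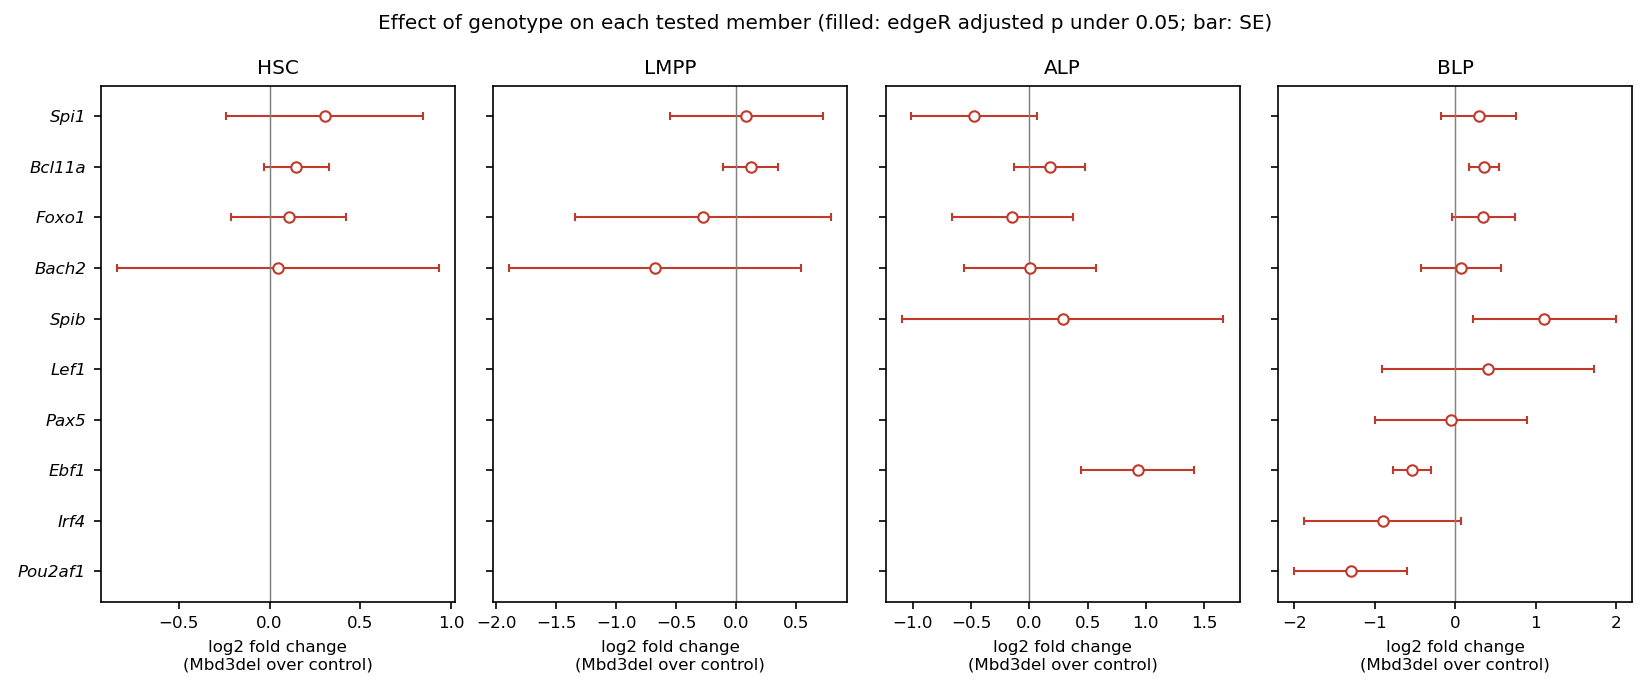
Log2 fold change of Mbd3del over control for each tested member in the 4 populations, with the SE as bar. All points are open, so none passed an edgeR adjusted p of 0.05; Ebf1 lies above 0 in ALPs (0.93) and below 0 in BLPs (-0.53).

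Marker transcripts were compared in the same populations. Ly6d, whose protein divides the ALP and BLP gates, ranged from 71.5 to 492.7 CPM in Mbd3del ALPs and from 47.0 to 118 CPM in control ALPs. By mouse number, the order of the Ebf1 values given before, the Mbd3del ALPs held 492.7, 249, 261, 71.5 and 271 CPM of Ly6d. DESeq2 called Ly6d between genotypes in ALPs and edgeR did not. In BLPs the summed CPM of 8 plasmacytoid dendritic cell markers ranged from 2875 to 5908 in Mbd3del mice and from 1316 to 3127 in control mice. All 7 tested markers had a positive log2 fold change, and Klk1 was at 0 in Mbd3del BLPs. Of the 7, edgeR called 1 (Ly6c2), DESeq2 called 4 (Irf8, Ly6c2, Runx2 and Siglech), and 5 had an unadjusted edgeR p under 0.05. By the same rules 0.0743%, 1.47% and 8.31% of all genes were counted. Of 16 B lineage markers in BLPs, against the same shares, edgeR and DESeq2 called 0, and 5 had an unadjusted edgeR p under 0.05. The median log2 fold change of the 16 was -0.35, with 11 negative. Their summed CPM, much of it Ly6d, ranged from 13873 to 19354 in Mbd3del BLPs and from 12176 to 19560 in control BLPs. The part of these markers in the Ebf1, Spib and Pou2af1 values was not tested.

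Genes known as direct targets of Ebf1, Pax5 or Foxo1 were followed as a list of 19, chosen from textbook knowledge. The filter on low counts favours list genes that are high in one of the populations compared. At the step from LMPP to ALP edgeR called 7 of 13 tested targets higher in Mbd3del mice and 5 of 11 in control mice, and 0 lower, beside 1.11% and 0.469% of all genes called higher. The median log2 fold change was 4.09 in Mbd3del mice and 2.19 in control mice, beside -0.01 and 0.03 for all genes tested. Il7r, the receptor gene that also defines the gate, gave 7.91 ± 0.55 in Mbd3del mice and 7.50 ± 0.52 in control mice, and the recombinase gene Rag1 gave 5.72 ± 0.82 in Mbd3del mice (edgeR adjusted p = 0.00152). EdgeR also called Rag1 higher at this step in control mice. From ALP to BLP 6 of 15 were called higher in Mbd3del mice and 5 of 14 in control mice, beside 0.507% and 0.238% of all genes. Cd79a, the signalling chain of the B cell receptor, gave 4.33 ± 0.38 in Mbd3del mice and 7.18 ± 0.93 in control mice (adjusted p = 7.41e-05 and 0.00185). Vpreb3 gave 8.85 ± 0.90 in control mice (adjusted p = 0.000243). In Mbd3del mice DESeq2 called Vpreb3 at this step and edgeR did not.

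From HSC to LMPP, before the rise of Ebf1, the recombinase gene Rag2 gave 5.83 ± 0.54 in Mbd3del mice and 5.52 ± 0.52 in control mice on the log2 scale (edgeR adjusted p = 8.05e-06 and 2.61e-05). Between genotypes edgeR called 0 of the 16 targets tested in BLPs, 7 had an unadjusted p under 0.05, and DESeq2 called 2 (Cxcr4 and Il7r), beside 0.0743%, 8.31% and 1.47% of all genes by the same rules. Of the 16, 4 had a positive and 12 a negative log2 fold change, with a median of -0.43 beside -0.03 for all genes. Il7r, which also defines the gate, ranged from 461 to 737 CPM in Mbd3del BLPs and from 854 to 1555 CPM in control BLPs. These ranges did not overlap, as for 2.58% of all genes tested in BLPs.

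Of 19 other regulators of early B cell development, 17 could be tested from HSC to LMPP, where edgeR called 2 higher and 1 lower in Mbd3del mice and 1 higher in control mice. Of all genes, 2.99% were called higher and 3.75% lower at this step in Mbd3del mice and 2.82% higher in control mice. From LMPP to ALP it called 2 of 17 higher in Mbd3del mice and 1 of 17 in control mice, beside 1.11% and 0.469% of all genes. From ALP to BLP it called 1 of 18 in Mbd3del mice and 0 of 17 in control mice, beside 0.507% and 0.238% of all genes. In control mice 4 had an unadjusted p under 0.05, beside 4.32% of all genes, and DESeq2 called 0. Zfp521, a zinc finger repressor of Ebf1 function, gave -1.83 in Mbd3del LMPPs over HSCs. Between genotypes edgeR called 0 of 18 in BLPs, 5 had an unadjusted p under 0.05, and DESeq2 called 2 (Id2 and Irf8), against the shares of all genes given for the targets. Ikzf1, which encodes Ikaros, rose from HSC to LMPP by 0.80 ± 0.21 in Mbd3del mice and 0.82 ± 0.22 in control mice on the log2 scale (edgeR adjusted p = 0.0326 and 0.0441). Irf8, an interferon regulatory factor of B cells and dendritic cells and a paralogue of Irf4, rose from LMPP to ALP by 3.66 ± 0.54 in Mbd3del mice and 3.94 ± 0.56 in control mice (adjusted p = 0.00189 and 0.00258). Among 17 paralogues of the members, Irf8 was the single gene that edgeR called at any step. Of 6 paralogues tested in BLPs, edgeR called 0 between genotypes, 2 had an unadjusted p under 0.05, and DESeq2 called 2 (Irf8 and Tcf7l2), against the same shares. In BLPs it averaged 1141 ± 267 CPM in Mbd3del mice and 625.1 ± 190 CPM in control mice, a difference that DESeq2 called and edgeR did not. Ebf2, Pax8 and Bcl11b, close relatives of Ebf1, Pax5 and Bcl11a, were at 0 in all 8 groups.

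The genes whose levels ran most like those of 3 late members were ranked by Pearson's r of log2(CPM + 1) over the 40 libraries among 13800 genes. The libraries share their populations, so these values mostly follow the differences between populations. For Ebf1 the nearest were Rag1 (0.96), Siglech (0.95), Il7r (0.94) and Fcrla (0.93). Within the 10 BLP libraries alone their r with Ebf1 was 0.35, -0.48, 0.63 and -0.48 in that order, so 2 of the 4 turned negative. For Pax5 the nearest were Ighv10-1 (0.89), Pou2af1 (0.86), Cd79a (0.86) and Igll1 (0.85), and within BLPs r was 0.74, 0.46, 0.81 and 0.61. For Pou2af1 they were Vpreb3 (0.92), Ighv10-3 (0.91), Cd79a (0.90) and Ighg2b (0.89), with 0.65, 0.65, 0.47 and 0.66 within BLPs. Immunoglobulin segments have near-identical copies, so their counts are uncertain.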

How the data were processed

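Smart-seq2 libraries of sorted bone marrow pools were processed with the aligner STAR 2.5.2b, the build GRCm38 and the counter HTSeq 0.6.1p1, all named in the submitters' processing notes. The authors deposited raw counts per feature in a table of 128910 rows, of which 79325 are repRegion features (0.205% to 2.28% of a library's counts) and were not used. The annotation release and the strand setting are not stated in the sources used here. Gene symbols, exon lengths and overlaps came from GENCODE M21 for 49326 of the 49585 gene rows. Samples were grouped by the genotype and description fields, which call the Mbd3del LMPPs deleted where their titles say floxed. Labels and design text exchange the cell numbers of the HSC and other pools.

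CPM were computed over gene count totals, and per kilobase values over the union of exons. Counts were tested with edgeR 4.0.16 in R 4.3.3 (quasi-likelihood F test, robust, TMM scaling, filter of minimum count 10 and total 15, Benjamini-Hochberg over all genes, threshold 0.05), with each comparison fitted on its own libraries. Members that failed the filter were not tested. Alternatives were DESeq2 1.42.0, other scalings and filters (none, or minimum count 50), a joint fit, a mouse block, leaving out mice, and both genotypes together. Populations of a mouse come from the same animal, per the labels, so mouse numbers pair the libraries across steps, although deviations of same-mouse libraries correlated only between -0.154 and 0.161 over genes. On simulated counts edgeR recovered 79.4% of log2 changes of 2 and 92.2% of 3 for genotype in BLPs (10380 genes), and 68.0% and 82.5% for control ALP to BLP (10488 genes). Only genes above a cutoff on mean CPM were given a change, and no log2 change under 2 was simulated. Pax5, Irf4 and Lef1 lay below that cutoff in both simulations, as did Pou2af1 and Spib for control ALP to BLP. Recovery was therefore not tested for members that low or for smaller changes. For genotype in HSCs, LMPPs and ALPs it was not tested. Intervals are 95% and, like floors, cover counting error only, since amplified reads are not independent molecules. Mice are separate animals within a group.

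Members and lists, and the rule for named genes, were set with earlier results of these data known. Named are all members, Mbd3, up to 4 called genes per list and comparison by adjusted p, and the 4 genes most like Ebf1, Pax5 and Pou2af1. Other genes, such as Irf8 in BLPs and the gate markers, were named after their values were seen.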

Additional observations from a re-analysis of the deposited data

Results flagged for a closer look

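Among 80 groups of 5 libraries, 62 had a library with at least 3 counts of the member, and in 12 of these the highest or lowest library stood apart from the other 4 by more than Dixon's critical share of the range (0.71). For normally distributed values chance gives about 1 in 20 groups. That share does not hold here, since in 5 of the 12 groups the other 4 libraries were all at 0 and any library with counts then stands apart.

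In Mbd3del ALPs, mouse10376 stood apart for 3 late members, with 2.74 CPM of Irf4, 1.37 CPM of Pou2af1 and 3.74 CPM of Lef1, where the other 4 libraries lay at 0 to 0.159 CPM. The same mouse had the lowest Spi1 (13.5 CPM) and the highest Spib (1.23 CPM) of the Mbd3del HSCs. The Mbd3del mouse10365 had the lowest Spib of the Mbd3del ALPs (0.318 CPM) and the highest Irf4 of the Mbd3del LMPPs (1.07 CPM). The Mbd3del mouse10360 had the highest Bcl11a of the Mbd3del BLPs (576 CPM).

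Control mouse10372 had the highest Pax5 of the control ALPs (2.68 CPM, the other 4 at 0), the highest Irf4 of the control BLPs (41.5 CPM) and the lowest Spi1 of the control HSCs (5.90 CPM). Control mouse10358 had the highest Spib of the control LMPPs (3.11 CPM). No explanation was tested for these libraries.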

How the results depend on the processing

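The 0 members called between genotypes and for differences of steps did not change under any alternative run. From HSC to LMPP the count of 1 in Mbd3del mice was 0 to 0 without each mouse in turn and 2 with both genotypes together, and the count of 1 in control mice was 0 to 1 without each mouse, 2 in the joint fit (Ebf1 and Foxo1) and 2 with both genotypes. From LMPP to ALP the count of 1 in Mbd3del mice was 0 to 1 without each mouse and 2 with both genotypes, and the count of 1 in control mice was 2 with DESeq2, 2 with both genotypes and 0 with the replicate block by mouse. The block changed no other call of a member. From ALP to BLP the count of 1 in Mbd3del mice was 4 with DESeq2, 0 without scaling, 3 without the filter, 2 at a minimum count of 50, 0 in the joint fit, 3 with both genotypes and 0 to 1 without each mouse. There the count of 2 in control mice was 1 at a minimum count of 50, 1 to 2 without each mouse and 0 without mouse10372 and mouse10381. Of 35 log2 fold changes over 1 SE, 2 turned sign, both uncalled. Bcl11a from LMPP to ALP in control mice ran from -0.015 (without mouse10372) to 0.61 over mice left out, and was -0.14 without mouse10372 and mouse10381. The difference of that step for Spib ran from -0.60 (without control mouse10358) to 5.34. The cause was not tested. All 130 alternative positions stayed within 1 SD. Members at under 3 counts in a library limit the order of onset.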

Other observations

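In a pair of ALP libraries, chosen after their values were seen, some of the late members were higher than in the others of their group. In mouse10376 (Mbd3del), which held 2.74 CPM of Irf4, 1.37 CPM of Pou2af1 and 3.74 CPM of Lef1, 15311 genes were detected and mitochondrial transcripts took 2.55% of gene counts, and Ly6d was at 71.5 CPM. Its Mbd3 value, 3.24 CPM, was the highest of the 20 Mbd3del libraries. In control mouse10372, which held 2.68 CPM of Pax5, 12.5 CPM of Spib and 2.97 CPM of Irf4, Bcl11a (613 CPM), Bach2 (126 CPM), Foxo1 (70.5 CPM) and Mbd3 (165 CPM) were each the highest of the control ALPs. The same library held no Lef1 and no Pou2af1, and its Ebf1 level (15.5 CPM) was below that of 3 of the other 4 control ALPs. That library had the fewest gene counts of the control ALPs (3363182) and the most detected genes of all 40 (15745).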
